A study of Mus musculus with 12 samples.

Results

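Type 1 dendritic cells (DC1) that had entered a tumor were compared with DC1 of the spleen for the messenger RNA of 84 glycosylation genes. The members are the samples labelled tumor DC-1 and Splenic DC-1, 6 of the 12 samples of the series, and every panel gene is followed in them. Tumor DC1 were sorted from MCA101 fibrosarcomas, a mouse tumor line injected under the skin of the flank, and carry the tag CD103-positive. Splenic DC1 were sorted from mouse spleen, carry the tag XCR-1-positive and are described as the control. One protocol gives a CD103 and CD8 gate for both tissues, and with a different tag on each group the tissue cannot be told apart from the marker. No treatment or transgene is given for either group, and strain, age, sex, and whether the spleens came from tumor-bearing mice are not given in the sources used here. RNA input was 50 to 100 ng, and each sample was run on a commercial 96-well SYBR Green array.

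Each group has 3 deposited files, of which 2 hold separate measurements. The third file of each group equalled 1.021 times the mean of the other 2, within 0.002 cycles, in 90 of 96 wells for tumor DC1 and in 83 of 94 wells for splenic DC1. In 9 of the 90 tumor matches and 1 of the 83 splenic matches the relation held with a blank replicate counted as 0. The values below come from replicates 1 and 2 of each group, n = 2. Directions follow the labels of these files. The authors' deposited table of fold changes runs the opposite way, as its values show further on. Whether replicates are separate animals is not in the labels, and the spread behind each p-value may therefore be technical. With 2 samples against 2, an exact permutation test of a single value cannot go below p = 0.333. None of 19 markers of dendritic cells, macrophages, lymphocytes and fibroblasts is on the panel, so the sorted identity could not be checked, and in bulk RNA fewer cells of a type and less RNA per cell cannot be told apart.

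Glycans are built in the endoplasmic reticulum and Golgi by transferases that each add 1 kind of sugar, are trimmed by glycosidases, and are taken apart in the lysosome. N-glycans start as a common precursor that is trimmed and then branched, while mucin-type O-glycans start with a single N-acetylgalactosamine (GalNAc). On dendritic cells the finished sugars are ligands of lectins such as galectins and Siglecs, and sialic acid at their tips is known to dampen antigen presentation.

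A well is read as its threshold cycle (Ct), the amplification cycle at which its signal crosses a set line, so that 1 cycle less stands for about double the template. Of the 84 genes, 69 and 64 had a Ct under 35 in tumor DC1 replicates 1 and 2, and 75 and 67 in splenic DC1 replicates 1 and 2. The median Ct of those genes was 30.2 and 28.9 in tumor DC1, against 27.9 and 30.8 in splenic DC1. The positive PCR control wells were close, with mean Ct of 18.50 and 18.28 in tumor DC1 and 18.06 and 18.52 in splenic DC1. The reverse transcription control wells stood 2.11 and 2.67 cycles behind them in tumor DC1, and 2.02 and 2.51 cycles behind in splenic DC1. Replicates of 1 group thus differed more in template than the groups did, and levels have to be read against a reference.

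The 5 reference wells did not move together between the tissues. Actb, the cytoskeletal actin gene, stood 3.71 and 4.13 above the mean of the other 4 wells in tumor DC1, against 2.46 and 3.06 in splenic DC1 (log2 levels). The well that the usual plate layout gives to Gapdh, a glycolytic enzyme, stood at -2.30 and -2.09 against the other 4 in tumor DC1, and at 0.20 and 0.34 in splenic DC1. These 2 wells, and the Gusb well, did not overlap between the groups, and the exact two-sided p was 0.333 for each, the smallest this design allows.

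**Figure D1:**
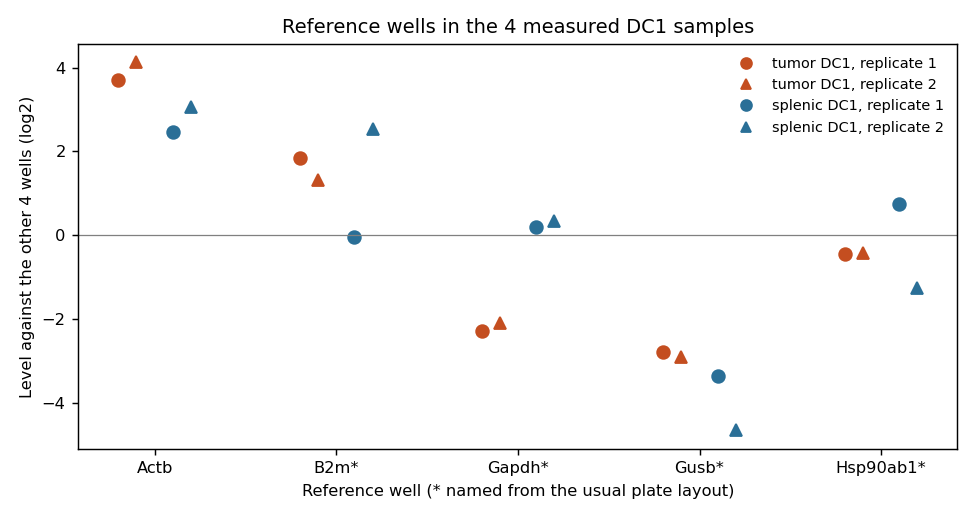
Level of each reference well against the mean of the other 4 wells (log2, vertical axis) in each measured sample, with tumor DC1 in orange left of splenic DC1 in blue. The Gapdh well is lower in both tumor samples than in both splenic samples and the Actb well is higher, while the B2m and Hsp90ab1 wells overlap.

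Values were therefore read on a pair of scales. On the reference-well scale a gene's level is counted in cycles below the mean of the 5 reference wells, and on the panel-mean scale in cycles below the mean of the 62 tested genes. Both are log2 scales on which higher means more RNA. Changing the reference moves all genes by 1 constant, so the order of the genes by difference is the same on both, and tumor minus splenic differences are 0.81 greater on the panel-mean scale. The median difference of the 62 genes was -0.39 on the reference-well scale and 0.42 on the panel-mean scale, and with single reference wells it lay between -1.32 (Actb or Gusb) and 1.58 (Gapdh). The scales also differ in spread. On the reference-well scale splenic replicate 1 stood above splenic replicate 2 in 61 of 62 genes, by a median of 1.30, while the tumor replicates differed by a median size of 0.35. On the panel-mean scale the median size of the difference between replicates was 0.34 in tumor DC1 and 0.34 in splenic DC1.

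On the reference-well scale 5 genes were lower in tumor DC1 past an adjusted p of 0.05 and 0 were higher (8.06% of the 62 tested, limma with Benjamini-Hochberg adjustment). They were Neu2, Galnt6, Galnt3, B3gnt8 and B4galt5. At an unadjusted p under 0.05 there were 12 lower (19.4%) and 1 higher (1.61%). On the panel-mean scale 21 genes passed (33.9%), 11 lower (17.7%) and 10 higher (16.1%), and all 5 genes above were among the 11. That scale sets the mean difference of the 62 genes to 0 by construction. On the reference-well scale the mean was -0.81, below the median of -0.39, because of the few large falls. Calls of higher on the panel-mean scale are therefore relative to a mean that these falls pull down. Groups did not overlap in 26 genes as lower (41.9%) and 4 as higher (6.45%) on the reference-well scale, 48.4% in all, and in 16 as lower (25.8%) and 33 as higher (53.2%) on the panel-mean scale, 79% in all. With the B2m well alone as reference Neu2 was the 1 gene to pass, and with the Gapdh well alone Neu2 and Galnt6 were the 2 to pass as lower. The counts of calls also rest on few samples. Leaving out tumor replicate 1 or 2 left 3 and 3 calls on the reference-well scale, and leaving out splenic replicate 1 or 2 gave 12 and 16. On the panel-mean scale the counts were 0 without tumor replicate 1, 2 without tumor replicate 2, 3 without splenic replicate 1 and 0 without splenic replicate 2.

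Mucin-type O-glycans begin with the polypeptide GalNAc transferases, and 9 of their 17 panel genes could be tested. Galnt6 and Galnt3, close relatives that place the first GalNAc on serine and threonine, were both lower in tumor DC1. Galnt6 had levels of -9.97 and -9.04 in tumor DC1, against -4.53 and -5.49 in splenic DC1. The lower splenic value is more than 3 cycles above the higher tumor value, and the groups did not overlap, which was so in the same direction for 41.9% of all tested genes. The difference was -4.49 ± 0.70 (SE, n = 2 per group, limma adjusted p = 0.015), 22.5-fold lower. It was -3.68 ± 0.46 on the panel-mean scale (adjusted p = 0.0028).

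Galnt3 had levels of -11.10 and -10.02 in tumor DC1, against -5.96 and -7.39 in splenic DC1. Its Ct in tumor replicate 1 was 35.09 and was set to 35, so the fold is a lower limit. Over the 7 reference choices its difference ran from -4.81 to -1.91. On the reference-well scale Galnt3 was at least 14.8-fold lower in tumor DC1 (-3.89 ± 0.77, limma adjusted p = 0.020). Without tumor replicate 1, where the tumor group rests on 1 sample, it was -3.34. The difference was -3.17 without splenic replicate 1, -4.60 without splenic replicate 2 and -4.43 without tumor replicate 2.

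The regions before the starts of 4 of the 5 genes that passed as lower are shown as a description. These genes were grouped by that call alone, and the region of Neu2 is not printed. Promoters of 49 of the 62 tested genes were matched by symbol in RefSeq's table for GRCm38.p6, using the first listed start. Capitals mark the GC box GGGCGG or, on the other strand, CCGCCC, a motif known to bind Sp1-family factors, and matches may overlap. Each run holds the 250 bases before the start, 5′ to 3′ in the direction of the gene.

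Galnt6, chr15:100729377-100729626, minus strand: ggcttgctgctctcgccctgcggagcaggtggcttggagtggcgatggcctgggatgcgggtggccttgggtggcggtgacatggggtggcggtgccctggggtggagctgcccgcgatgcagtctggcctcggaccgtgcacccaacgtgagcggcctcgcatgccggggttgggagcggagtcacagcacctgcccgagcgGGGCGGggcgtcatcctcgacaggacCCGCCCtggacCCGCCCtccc

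Galnt3, chr2:66124794-66125043, minus strand: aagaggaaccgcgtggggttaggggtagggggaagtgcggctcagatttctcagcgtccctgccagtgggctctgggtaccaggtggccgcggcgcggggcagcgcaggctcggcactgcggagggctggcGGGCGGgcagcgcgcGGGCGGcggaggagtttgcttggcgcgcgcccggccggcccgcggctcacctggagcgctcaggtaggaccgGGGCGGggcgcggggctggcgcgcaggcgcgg

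B3gnt8, chr7:25627374-25627623, plus strand: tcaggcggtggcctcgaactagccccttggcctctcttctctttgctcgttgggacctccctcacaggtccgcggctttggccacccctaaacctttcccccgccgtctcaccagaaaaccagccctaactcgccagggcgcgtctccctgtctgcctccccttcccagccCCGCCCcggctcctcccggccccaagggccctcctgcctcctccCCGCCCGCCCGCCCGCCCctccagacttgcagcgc

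B4galt5, chr2:167349179-167349428, minus strand: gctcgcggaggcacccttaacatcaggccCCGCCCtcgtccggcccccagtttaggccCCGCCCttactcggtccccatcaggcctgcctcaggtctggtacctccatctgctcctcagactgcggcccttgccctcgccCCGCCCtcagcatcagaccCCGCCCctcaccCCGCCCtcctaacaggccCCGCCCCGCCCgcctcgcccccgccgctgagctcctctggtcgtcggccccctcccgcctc

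The GC box stood 3 times before Galnt6, 3 times before Galnt3, 5 times before B3gnt8 and 7 times before B4galt5, and 0 times before the first listed start of Neu2. That is 4 of the 5 genes that passed, beside 31 of the other 44 tested genes with an entry (70.5%) and 32.7% of all 32851 promoters in the table. The motif is thus common across the panel. A match is a description of the letters only.

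The other end of the GalNAc transferase list was held by Galnt12 and Galnt10, which carry out the same step. Galnt12 had levels of -6.26 and -6.49 in tumor DC1, against -6.61 and -9.28 in splenic DC1. The tumor values are close to each other and the splenic values are not, and the gap between the groups is narrow on this scale. The difference was 1.57 ± 0.94 (adjusted p = 0.357), and on the panel-mean scale it was 2.38 ± 0.52 (adjusted p = 0.013). Galnt10 differed by 1.33 ± 0.83 (adjusted p = 0.366), and by 2.14 ± 0.44 on the panel-mean scale (adjusted p = 0.011). Galnt12 and Galnt10 were positive under each of the 7 reference choices tried, as was Fuca1, and no other gene was.

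The change of balance within the family can be read without any reference, as the difference in level between 2 genes of the same sample. Galnt6 minus Galnt12 was -3.72 and -2.55 in tumor DC1, against 2.07 and 3.79 in splenic DC1. Galnt6 thus needed more cycles than Galnt12 in both tumor samples and fewer in both splenic samples, a shift of -6.06. Galnt3 minus Galnt10 was -3.33 and -2.55 in tumor DC1, against 1.95 and 2.60 in splenic DC1, a shift of -5.21. These 4 genes were picked as the ends of the list, so both shifts are descriptions with no test. Galnt1 and Galnt2, the broadly expressed members, also moved against each other, with Galnt1 minus Galnt2 at 1.35 and 1.18 in tumor DC1, against 0.14 and 0.13 in splenic DC1.

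Over the list, 2 of the 9 tested GalNAc transferases passed as lower and 0 as higher on the reference-well scale, beside 8.06% and 0% of all 62 genes. On the panel-mean scale it was 2 as lower and 3 as higher, beside 17.7% and 16.1% of all 62, and Galnt7, which prefers partly glycosylated substrates, joined Galnt12 and Galnt10. The list's median difference was -0.11 on the reference-well scale, beside -0.39 for all 62 genes. The O-glycan core list had 3 tested genes and 0 calls on either scale. C1galt1, which builds core 1, differed by -0.25 ± 0.73, C1galt1c1, the chaperone it needs, by -0.39 ± 0.62, and Gcnt1, which branches core 1 into core 2, by -0.69 ± 0.79 (limma adjusted p = 0.899, 0.839 and 0.701). Gcnt1 had levels of -6.53 and -7.76 in tumor DC1 and -5.72 and -7.19 in splenic DC1, and the groups overlapped.

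Galactose and poly-N-acetyllactosamine enzymes had the lowest median of the 14 lists. Of its 6 tested genes 2 passed as lower and 0 as higher, beside 8.06% and 0% of all 62 genes. Against the panel mean 4 passed as lower, beside 17.7% of all 62, and the median on the reference-well scale was -2.70, beside -0.39 for all 62. B4galt5, which makes lactosylceramide, the stem of most glycosphingolipids, had levels of -6.25 and -6.22 in tumor DC1, against -2.95 and -2.96 in splenic DC1. Replicates agree within 0.03 on this scale, closer than for most genes. On the panel-mean scale they do not, with 0.20 and 0.47 in tumor DC1, against 2.24 and 3.38 in splenic DC1. The median size of the splenic replicate difference there was 0.34. The difference was -3.28 ± 0.60 (n = 2 per group, limma adjusted p = 0.020), 9.71-fold lower, and the call was lost without tumor replicate 1 (adjusted p = 0.086) and without tumor replicate 2 (adjusted p = 0.082).

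B3gnt8, an extender of polylactosamine chains on branched N-glycans, had levels of -9.57 and -11.06 in tumor DC1, against -6.11 and -6.76 in splenic DC1. Its Ct values were 33.47 and 33.51 in tumor DC1, late but under 35, against 28.42 and 31.08 in splenic DC1. Both tumor samples lie below both splenic ones. It was 14.8-fold lower in tumor DC1 (-3.88 ± 0.75, limma adjusted p = 0.020), and -3.14 with an adjusted p of 0.097 without tumor replicate 2. Without tumor replicate 1 the difference was -4.63.

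B4galt1, the main galactosyltransferase of N-glycans, had levels of -5.76 and -5.22 in tumor DC1, against -2.29 and -3.44 in splenic DC1. The groups lie apart, and the difference of -2.63 ± 0.69 did not pass (limma adjusted p = 0.062), while it passed on the panel-mean scale at -1.82 ± 0.40 (adjusted p = 0.013). B3gnt3, which extends core 1 O-glycans, had -10.97 and -10.86 in tumor DC1, against -6.92 and -9.36 in splenic DC1, a difference of -2.78 ± 0.89 (adjusted p = 0.097) that passed on the panel-mean scale (adjusted p = 0.017). Against these, B4galt3, another galactosyltransferase, had -6.33 and -6.53 in tumor DC1 and -5.73 and -7.98 in splenic DC1, and the groups overlapped. Set against B4galt3 in the same sample, B4galt1 stood at 0.57 and 1.30 in tumor DC1, against 3.44 and 4.54 in splenic DC1, and B4galt5 at 0.09 and 0.30 in tumor DC1, against 2.78 and 5.02 in splenic DC1.

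**Figure D2:**
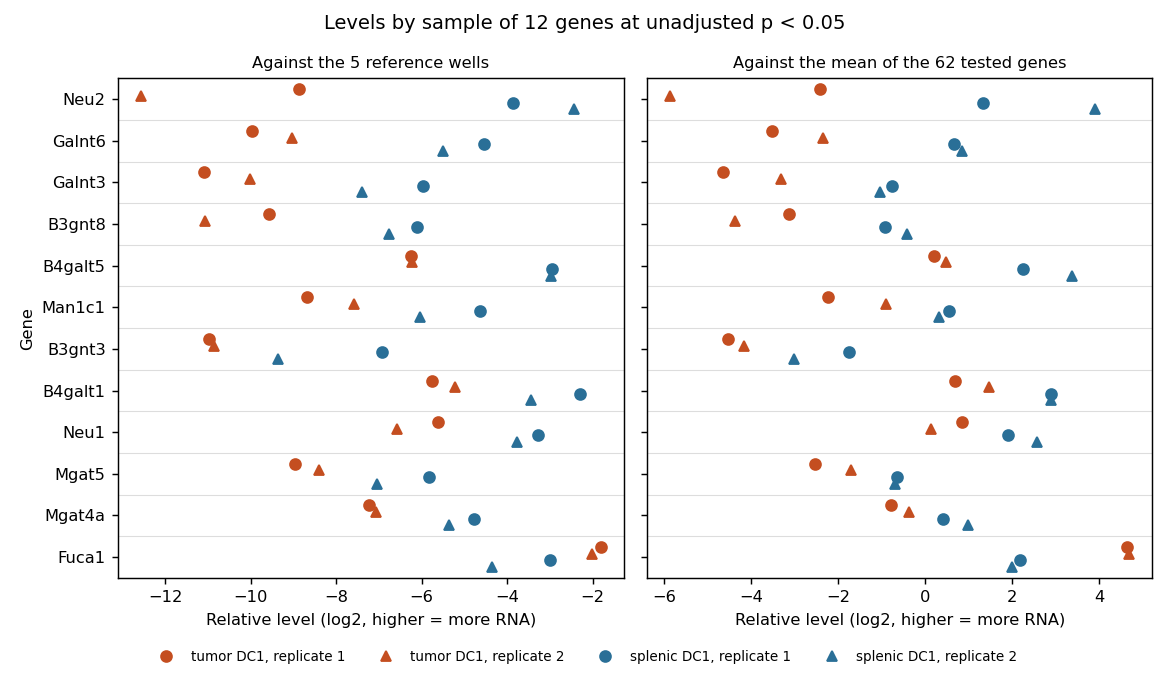
Level in each measured sample of 12 genes at an unadjusted p under 0.05 (rows), on the reference-well scale (left) and the panel-mean scale (right), in log2 units, with tumor DC1 in orange above splenic DC1 in blue. In 11 genes both tumor points lie left of both splenic points and in Fuca1 they lie right of them, and the splenic points draw together in most genes on the right. The 12 genes were picked on these same values. Of all 62 tested genes 41.9% lay apart as lower and 6.45% as higher on the left scale, and 25.8% and 53.2% on the right scale.

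N-glycan branches are started by the Mgat enzymes, of which 6 of 8 could be tested. On the reference-well scale 0 of the 6 passed in either direction, beside 8.06% of all 62 genes, and on the panel-mean scale Mgat4a and Mgat5, 2 of the 6, passed as lower, beside 17.7% of all 62. Mgat5, which starts the branch that B3gnt8 and galectins prefer, had levels of -8.97 and -8.40 in tumor DC1, against -5.83 and -7.04 in splenic DC1. The groups lie apart by over 1 cycle. The difference was -2.25 ± 0.70 (limma adjusted p = 0.095), and -1.44 ± 0.40 on the panel-mean scale (adjusted p = 0.026).

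Mgat4a, which adds another branch, had -7.24 and -7.07 in tumor DC1, against -4.78 and -5.36 in splenic DC1, a difference of -2.09 ± 0.63 (adjusted p = 0.088), and -1.28 ± 0.39 on the panel-mean scale (adjusted p = 0.035). Its isoenzyme Mgat4b had -5.74 and -6.04 in tumor DC1 and -4.86 and -6.26 in splenic DC1, which overlap. Mgat4a minus Mgat4b was -1.50 and -1.03 in tumor DC1, against 0.08 and 0.90 in splenic DC1, so the order of the isoenzymes by cycle was the opposite in the 2 tissues. Mgat2, which acts before Mgat5, differed by -0.09 ± 0.73 (adjusted p = 0.978). Mgat5 minus Mgat2 was -2.78 and -2.76 in tumor DC1, against -0.71 and -0.51 in splenic DC1. Mgat3, which adds the bisecting residue that stops branching, was near the limit, with Ct of 34.97 and 34.98 in tumor DC1 and 32.27 and 35.41 in splenic DC1.

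The trimming that comes before branching was split. Of 9 tested mannosidases and glucosidases of the endoplasmic reticulum and Golgi, 0 passed on the reference-well scale, beside 8.06% of all genes. Against the panel mean Man1c1 passed as lower, and Man1a2 and Mogs passed as higher, beside 17.7% and 16.1% of all genes. Man1c1, a Golgi alpha-mannosidase, had levels of -8.69 and -7.59 in tumor DC1, against -4.63 and -6.04 in splenic DC1, a difference of -2.81 ± 0.77 (limma adjusted p = 0.066). Its groups did not overlap. Its 2 relatives for the same step stood elsewhere, with Man1a at -1.23 ± 0.69 (adjusted p = 0.345) and Man1a2 at 0.53 ± 0.76 (adjusted p = 0.788).

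Mogs, the glucosidase that removes the first glucose of the precursor, had -6.002 and -5.58 in tumor DC1 and -5.67 and -7.31 in splenic DC1. The groups overlap on this scale. Against the panel mean it had 0.45 and 1.11 in tumor DC1, against -0.49 and -0.97 in splenic DC1, a difference of 1.51 ± 0.40 (adjusted p = 0.023). Man2a1, which trims mannose after Mgat1 has acted, differed by -1.36 ± 0.68 (adjusted p = 0.305). Man1c1 minus Mogs was -2.69 and -2.01 in tumor DC1, against 1.05 and 1.27 in splenic DC1.

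Sialic acid is added by sialyltransferases and removed by sialidases. Of 8 sialyltransferases on the panel 3 could be tested, and 0 of them passed on the reference-well scale, beside 8.06% of all 62 genes. St3gal1, which caps core 1 O-glycans, had levels of -5.16 and -5.26 in tumor DC1, against -3.79 and -4.34 in splenic DC1. The groups lie apart on this scale, and the difference was -1.15 ± 0.62 (limma adjusted p = 0.339). They overlap on the panel-mean scale, where it was -0.34 ± 0.38 (adjusted p = 0.459). St6gal1, which caps N-glycans and makes ligands of CD22, had -5.03 and -5.28 in tumor DC1 and -4.98 and -6.91 in splenic DC1.

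The St6gal1 groups overlap on this scale, with a difference of 0.79 ± 0.80 (adjusted p = 0.701). Against the panel mean St6gal1 had 1.41 and 1.42 in tumor DC1, against 0.20 and -0.57 in splenic DC1, and was higher by 1.60 ± 0.40 (adjusted p = 0.017). St3gal1 minus St6gal1 was -0.13 and 0.02 in tumor DC1, against 1.20 and 2.57 in splenic DC1. St3gal2 differed by -0.07 ± 0.76 (adjusted p = 0.979).

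Among the sialidases, Neu2, a cytosolic enzyme, had the largest difference of the 62 tested genes. Its Ct was 32.8 in tumor replicate 1 and blank in tumor replicate 2, against 26.2 and 26.8 in splenic DC1. With the blank set to 35, levels were -8.87 and -12.55 in tumor DC1, against -3.86 and -2.44 in splenic DC1. Both splenic samples are far above both tumor samples, and the tumor samples differ from each other by more than 3 cycles. The splenic samples also differ on the panel-mean scale, at 1.32 and 3.90. No other tested gene had splenic replicate 1 below splenic replicate 2 on the reference-well scale. Over the 7 reference choices the Neu2 difference ran from -8.49 to -5.59. On the reference-well scale Neu2 was at least 189-fold lower in tumor DC1 (-7.56 ± 1.22, limma adjusted p = 0.015), a limit that covers the blank and not the reference. Neu2 passed under each of the 7 reference choices. With 1 well alone as reference, the noise of that well enters every gene, while the fit takes errors as independent. Those passes are therefore not separate support. Neu2 stayed lower in tumor DC1 with each sample left out, where a group rests on 1 sample. The difference was -9.40 or -5.72 when tumor replicate 1 or 2 was left out and -8.27 or -6.85 when splenic replicate 1 or 2 was. Neu2 did not pass with late Ct set to 40 (-10.06, adjusted p = 0.081), a setting that widens the tumor spread, nor in a fit on all 8 measured samples of the series (adjusted p = 0.296). It also missed the threshold with all 6 deposited files (-1.66, adjusted p = 0.839) and in the series matrix as deposited (-5.86, adjusted p = 0.869). The third tumor file counts the blank of tumor replicate 2 as 0, which gives Neu2 a far earlier Ct there, so the -1.66 is not a separate measurement. B3gnt8 also missed the threshold in that 8-sample fit (adjusted p = 0.332).

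Neu1, the lysosomal sialidase, had levels of -5.61 and -6.57 in tumor DC1, against -3.27 and -3.77 in splenic DC1. Its groups lie apart, with a difference of -2.57 ± 0.67 (limma adjusted p = 0.062), and -1.76 ± 0.42 on the panel-mean scale (adjusted p = 0.017). Neu3, the sialidase of the plasma membrane, had -7.81 and -9.54 in tumor DC1, against -9.36 and -9.47 in splenic DC1. The Neu3 groups overlap, and the difference was 0.74 ± 0.76 (adjusted p = 0.701). Neu4 had Ct over 35 in all 4 samples.

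**Figure D3:**
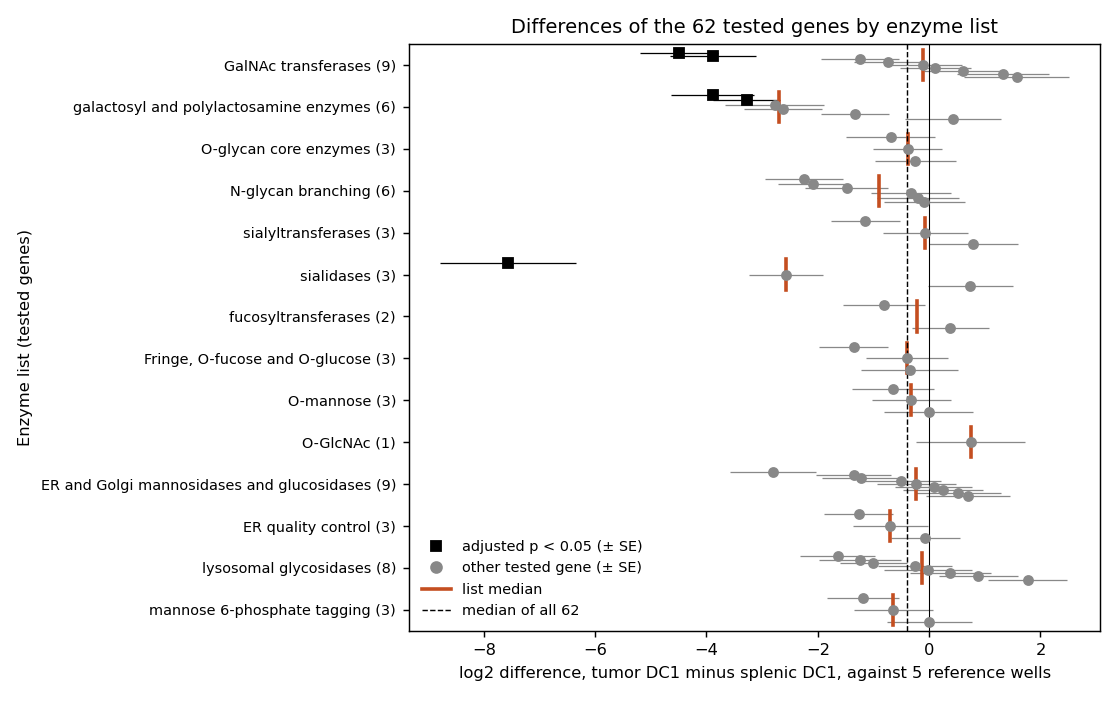
Difference in level, tumor DC1 minus splenic DC1 (log2, reference-well scale, horizontal axis), of the 62 tested genes in 14 enzyme lists, with black squares for an adjusted p under 0.05, bars for the standard error, orange lines for list medians and a dashed line for the median of all genes. The squares lie in 3 lists, and the galactosyl and sialidase medians of -2.70 and -2.57 lie left of the other list medians.

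Fucose is added to N-glycan cores by Fut8 and to other proteins by Fut11 and the Pofut enzymes. Fut8 had levels of -5.91 and -5.995 in tumor DC1 and -5.73 and -6.94 in splenic DC1, a difference of 0.38 ± 0.69 (limma adjusted p = 0.871). Against the panel mean Fut8 was higher by 1.19 ± 0.34 (adjusted p = 0.030). Fut11 differed by -0.81 ± 0.73 (adjusted p = 0.657). Pofut1, which places the O-fucose needed for Notch signalling, differed by -0.35 ± 0.87, and Pofut2, which fucosylates thrombospondin repeats, by -1.36 ± 0.63 (adjusted p = 0.899 and 0.279). None of the 3 O-fucose genes tested passed on either scale, beside 8.06% (reference wells) and 33.9% (panel mean) of all 62 genes.

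The O-mannose enzymes, which build the laminin-binding glycan of dystroglycan, ranged from Pomt1 at -0.65 ± 0.74 to Pomt2 at -0.01 ± 0.80. They had 3 tested genes and 0 calls on either scale, beside 8.06% (reference wells) and 33.9% (panel mean) of all 62 genes. Ogt, the single enzyme that adds GlcNAc to nuclear and cytosolic proteins, had -4.16 and -5.19 in tumor DC1 and -4.09 and -6.76 in splenic DC1. Its groups overlap, and the difference was 0.75 ± 0.98 (limma adjusted p = 0.765).

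Lysosomal glycosidases lay on both sides of the panel median. None of 8 passed on the reference-well scale, where 8.06% of all genes did. On the panel-mean scale 3 passed as higher and 0 as lower, beside 16.1% and 17.7% of all genes. Fuca1, which removes fucose in the lysosome, had levels of -1.81 and -2.003 in tumor DC1, against -3.002 and -4.36 in splenic DC1. Both tumor samples lie above both splenic samples, which was so for 6.45% of tested genes. Fuca1 differed by 1.77 ± 0.71 (limma adjusted p = 0.213), and by 2.58 ± 0.35 on the panel-mean scale (adjusted p = 0.0028). No other gene was higher in tumor DC1 at an unadjusted p under 0.05 on the reference-well scale.

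Man2b1, the lysosomal alpha-mannosidase, stood at 4.71 and 4.88 on the panel-mean scale in tumor DC1, against 3.21 and 2.998 in splenic DC1, and passed there at 1.69 ± 0.35 (adjusted p = 0.011). Fuca2 was the other gene of this list to pass there (1.19 ± 0.35, adjusted p = 0.032).

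Hexa, which removes terminal hexosamines in the lysosome, differed by -1.24 ± 0.73 (limma adjusted p = 0.357). Set against Man2b1 in the same sample, Hexa minus Man2b1 was -1.66 and -1.51 in tumor DC1, against 0.61 and 0.47 in splenic DC1. Tagging of such enzymes with mannose 6-phosphate needs Gnptab, Gnptg and Nagpa. On either scale 0 of these 3 passed, beside 8.06% (reference wells) and 33.9% (panel mean) of all 62 genes. Gnptab, the catalytic subunit, had -5.71 and -5.76 in tumor DC1, against -4.14 and -4.94 in splenic DC1, a difference of -1.19 ± 0.64 (limma adjusted p = 0.339), and Nagpa, which uncovers the tag, differed by 0.01 ± 0.76 (adjusted p = 0.994).

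Quality control in the endoplasmic reticulum had 3 tested genes and 0 calls on either scale, beside 8.06% (reference wells) and 33.9% (panel mean) of all 62 genes. Edem1, which hands misfolded glycoproteins over for degradation, had -4.22 and -4.54 in tumor DC1, against -2.97 and -3.25 in splenic DC1. The groups lie apart on this scale, and the difference was -1.27 ± 0.62 (limma adjusted p = 0.305). They overlap on the panel-mean scale, where it was -0.46 ± 0.41 (adjusted p = 0.372). Its relative Edem2 had -4.86 and -5.25 in tumor DC1 and -4.84 and -5.14 in splenic DC1, a difference of -0.07 ± 0.62. Edem1 minus Edem2 was 0.64 and 0.71 in tumor DC1, against 1.86 and 1.88 in splenic DC1, with replicates closer than for most pairs.

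Genes whose products work as 1 complex were set side by side in the same way. In pairs of enzyme subunits (Ganab and Prkcsh, Gnptab and Gnptg, Pomt1 and Pomt2) and in C1galt1 with its chaperone, the difference within a sample shifted between tissues by -0.64 to 0.31, and the groups lay apart in 0 of these 4 pairs. In 8 pairs of isoenzymes it shifted by -3.05 to 1.39, and the groups lay apart in 7. The median size of the shift was 0.43 in the subunit and chaperone pairs and 1.26 in the isoenzyme pairs, against 1.19 among all 1891 pairs of tested genes, of which the groups lay apart in 74.3%. The isoenzyme pairs were thus close to any 2 panel genes. These 12 pairs follow known biochemistry but were chosen with earlier results of these data known, and no test was made. A level compared between genes also carries the efficiency of each primer pair, taken here to be the same in both tissues.

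**Figure D4:**
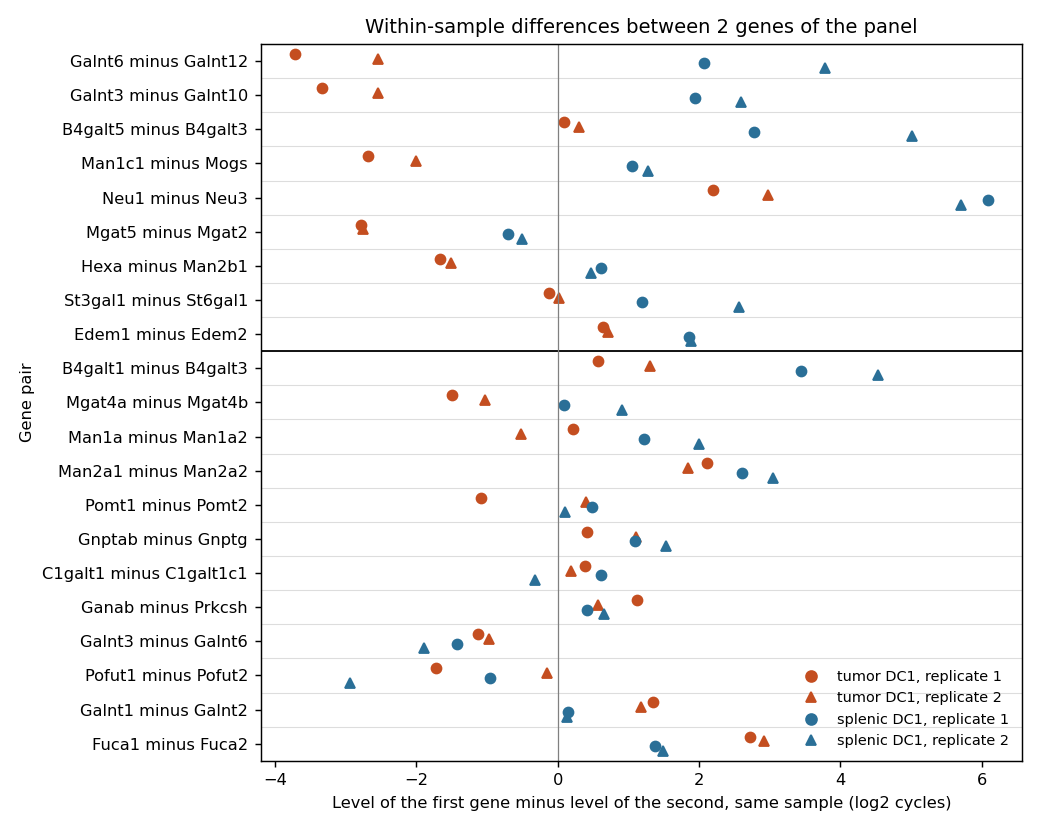
Difference in level between 2 genes of the same sample (log2 cycles, horizontal axis), with tumor DC1 in orange above splenic DC1 in blue; the 9 pairs above the line take genes far apart within an enzyme list and the 12 below it are subunits, a chaperone or isoenzymes. The colours lie apart in each of the 9 upper pairs, which were picked for that, and in 7 of the 12 lower pairs.

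Of the other panel genes, 17 were left out because a value broke the relation to the computed file, was a whole number or repeated another well, and 5 had a Ct under 35 in fewer than 2 samples. St8sia4, which adds polysialic acid, had Ct of 27.3 and 25.9 in tumor DC1, against 27.0 and 28.3 in splenic DC1, where the first is an exact whole number in the file. St8sia6, which makes disialic acid, had 31.5 and 31.2 in tumor DC1, against 28.3 and 39.9 in splenic DC1, where the first repeats a neighbouring well of the other splenic sample. Uggt1, the folding sensor, had 28.3 and 27.2 in tumor DC1, against 29.0 and 29.3 in splenic DC1, and the first splenic value is again a whole number.

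B4galt2, a galactosyltransferase, was blank in both tumor samples, against Ct of 30.7 and 29.5 in splenic DC1. The computed tumor file nonetheless held 34.98, a value that 2 blanks cannot give. Uggt2 had 35.1 and blank in tumor DC1, against 29.3 and 35.2 in splenic DC1, and the first splenic value repeats a well of replicate 2. St6galnac1, which makes sialyl-Tn, had 38.7 and blank in tumor DC1, against 37.7 and 34.8 in splenic DC1. The remaining 11 left-out genes were A4gnt, B3gnt4, Galnt13, Galnt5, Galnt16, Galntl5, Galntl6, Mgat4c, St8sia2, St8sia3 and Wbscr17, and none of them had a Ct under 34 in either tumor sample. In splenic replicate 1 B3gnt4 (32.2), Galnt16 (33.1), and St8sia2 and St8sia3 (31.1, the same value in both wells) were under 34. Galnt13 (33.9 and 32.6) and Galnt5 (33.7 and 33.0) were under 34 in both splenic samples, and the rest in neither. The 5 late genes were Galnt14, Galnt9, Gcnt3, Mgat5b and Neu4.

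The direction of the authors' deposited table runs opposite to these labels. By its header it holds test over control after normalization to Actb, in 3 columns for tumor over splenic DC1. For Galnt6 the authors' deposited table gives 17.5, 15.3 and 13.6, where the sample files give a log2 difference of -5.41 with the Actb well. For Fuca1 the authors' deposited table gives 0.24, 0.23 and 0.24, where the files give 0.85. Across the 62 tested genes Spearman's rho between the authors' deposited table and the files was -0.96 in its first column, a description over genes of the same samples. The sign itself was opposite in 35, 36 and 33 of the 62 genes in the 3 columns of the authors' deposited table, since its values are also offset from the files.

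With its sign turned, the log2 of the first column of the authors' deposited table stood 1.28 from the file values at the median, with a median absolute deviation of 0.03 and 59 of 62 genes within 0.25 of that offset. The 3 genes outside were Neu2, Gnptab and Galnt7. For Neu2 the authors' deposited table gives 1.12, 1.06 and 1.12, where the files give -8.49 with the Actb well. Exchanged labels of the files would turn every direction here. The cause was not tested.

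**Figure D5:**
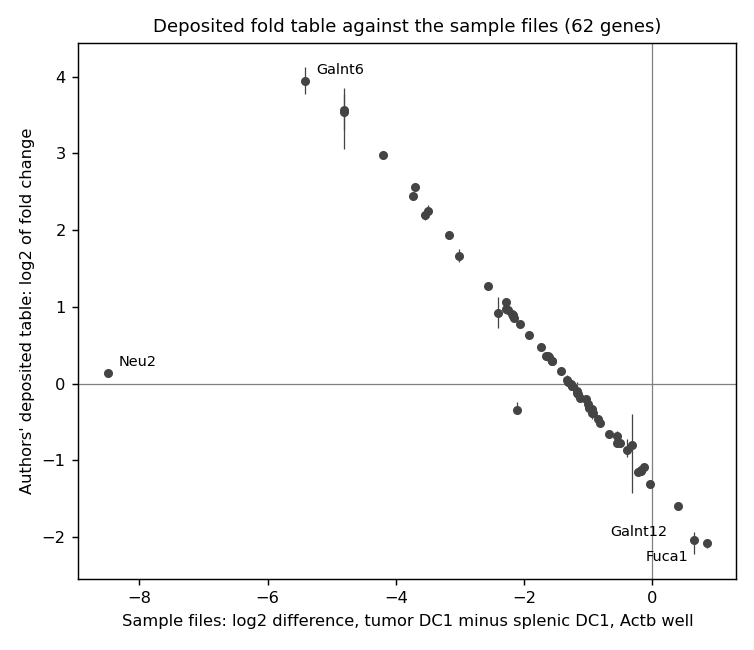
Log2 fold change in the authors' deposited table, averaged over its 3 tumor columns (vertical axis, bars for the range) against the log2 difference, tumor DC1 minus splenic DC1, with the Actb well from the sample files (horizontal axis), for the 62 tested genes. The points run down a line from Galnt6 to Fuca1, so the lower a gene is in tumor DC1 by the files, the higher it stands in the table; 59 of the 62 genes are below 0 in the files and 32 are above 0 in the table's first column, and Neu2 lies far from the line.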

How the data were processed

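Relative RNA levels were derived from real-time PCR on a 96-well glycosylation array in tumor and splenic DC1. Per the labels, the deposited sample files hold the authors' threshold cycle (Ct) of each well, an unnormalized reading, and their baseline settings are not stated there. The deposited series matrix holds log2-scale values (gene Ct minus Actb Ct), and the deposited fold table holds ratios, test over control, per the file headers. Wells were named by matching to the matrix within 0.002 cycles. Tumor replicate 2 and splenic replicate 3 stood 1 well early and were moved: tumor wells that fulfilled the relation to the third file numbered 2 before and 90 after. Only Actb is named in the files, and the other 4 reference wells follow the manufacturer's usual layout.

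Ct over 35 and blanks were set to 35. Genes with Ct under 35 in at least 2 of 4 samples were tested (62 of 84, with 17 left out for values that broke the relation or repeated another well) with limma 3.58.1 (R 4.3.3, two-sided, adjusted over 62 genes, threshold 0.05). The fit was run on simulated data with independent errors for each gene. That check does not cover the offset that genes share between the splenic replicates. Python 3.11.15, pandas 2.3.3 and matplotlib 3.10.9 were used. Genes, lists and pairs were chosen with earlier results of these data known. One item is not reported here. Named were genes at an unadjusted p under 0.05, the ends of each list and fixed genes, and others (Galnt1, Galnt2, Galnt7, Hexa, Man2b1, Fuca2, Man1a, Mgat4b, Pofut1) after their values were seen. Alternatives changed reference wells, late Ct, filter, samples, variance model and source. The number of samples limits the precision.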

Additional observations from a re-analysis of the deposited data

Results flagged for a closer look

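Well H06, which the usual plate layout gives to the genomic DNA control and which no comparison here uses, crossed the threshold at Ct 34.18 in tumor DC1 replicate 1. It was blank in tumor DC1 replicate 2 and in both measured splenic DC1 samples. The part of this signal in the levels of that sample was not tested. Groups of 2 measured samples are too small to look for a sample far from the others.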

How the results depend on the processing

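The count of 5 genes moved with the reference. It was 11 with Actb alone, 1 with H02, 16 with H03 (14 higher), 38 with H04, 15 with H05 (3 higher) and 21 with the panel mean (10 higher). It was 3 where Ct had to be under 35 in all 4 samples, 9 with a trended, robust variance, 21 (1 higher) with all 6 files and 0 with the series matrix as deposited, whose unmoved files and blanks counted as 0 differ by construction. It was 3 to 16 with 1 sample left out, the lone sample being assumed to vary like the other group, and 4 to 6 under the other 5 alternatives. On the panel-mean scale, chosen after seeing the data as a second scale with its alternatives, the 21 became 0 to 3 with 1 sample left out, 21 with late Ct at 40 and 20 with a stricter set of reference genes. Of 12 genes at an unadjusted p under 0.05, Neu1, B4galt1 and Mgat5 turned to 12.14, 11.41 and 13.38 in the series matrix. Galnt6 kept its call in 17 of 19 alternatives, Neu2 in 14 of 18, B4galt5 and B3gnt8 in 14 of 19, and Galnt3 in 13 of 18. These counts include fits on 1 reference well, whose noise all genes share, and fits with 1 sample left in a group. No paired analysis was possible because the labels number the samples in 1 run across groups. Late and blank wells limit Neu2, Galnt3 and Mgat3. In tumor replicate 1 the Ct of Galnt6 (33.88), B3gnt8 (33.47) and B3gnt3 (34.88) were also late.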
